A study of Danio rerio with 20 samples.

Results

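Aminoacyl-tRNA synthetases attach each amino acid to its transfer RNA, and so set which amino acid a codon brings into a protein. Animal cells keep one set for the cytosol and a second set, encoded by separate nuclear genes and imported, for the ribosomes inside mitochondria. In mammals many genes of the cytosolic set are targets of ATF4, the transcription factor translated when the initiation factor eIF2 is phosphorylated, and arsenite is a known trigger of that phosphorylation. Some cytosolic synthetases are held in a multisynthetase complex with scaffold proteins, whereas the others work free or as dimers and tetramers.

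The genes described are those whose zebrafish symbol is a one-letter amino acid code followed by "ars" and a number or letter. The rule finds 34 of 32105 counted identifiers, and 32 of them are described. Symbols ending in 2 were taken as the mitochondrial enzymes (14 genes) and the others as the cytosolic ones (18 genes), and all 32 passed the filter on low counts that left 16389 tested genes. The rule uses symbols and no measured value, though the members were chosen with earlier results of these data known. The symbol EPRS1 (the joined glutamyl- and prolyl-tRNA synthetase) lies outside this naming rule and is given separately, and AARS2 was not analysed here. LARS1 and lars1a both name a cytosolic leucyl-tRNA synthetase and FARSA and FARSB the alpha and beta subunits of one cytosolic phenylalanyl-tRNA synthetase, so these are not independent enzymes, and reads shared between the leucyl pair may have been split. In mammals GARS1 and KARS1 serve both compartments from a single gene. HARS2, the only histidyl-tRNA synthetase found by the rule, is an uncertain member of the mitochondrial class: the RefSeq gene table of zebrafish holds 1 gene named hars and 0 named hars2, so the mitochondrial counts under arsenite are also given without it.

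RNA was sequenced from livers dissected at about 119 hours after fertilization, with 12 to 15 larval livers pooled in each library. The 4 groups of 5 libraries were wild-type TAB5 larvae at 0 mM sodium arsenite, wild-type TAB5 larvae at 1 mM from 96 to 120 hours, as3mt-/- larvae at 0 mM, and as3mt-/- larvae at 1 mM over the same hours. AS3MT is the methyltransferase that converts inorganic arsenic to its methylated forms, and both mutant groups carry on each copy an 8 bp loss in exon 3, made by CRISPR, with a premature stop. Their parents were homozygous fish of the ABNYU background, so genotype and strain cannot be told apart in any comparison of mutants with wild type. The labels name separate pools without saying whether the pools share parents, so the p-values measure the spread between pools, which may be partly technical.

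Libraries held 25406597 to 42047561 counts. AS3MT itself, in CPM (counts scaled to a common library size with TMM factors), was 125 ± 7.09 (SD, n = 5) in unexposed wild type, 45.9 ± 18.4 in exposed wild type, 72.7 ± 9.30 in unexposed mutants and 13.1 ± 4.21 in exposed mutants, and such totals do not show the 8 bp deletion. Of 16 hepatocyte markers, 15 were tested and CPS1 was at 0 in both unexposed groups. Wild-type libraries summed to 283544 to 307681 CPM of them before and 79325 to 142293 CPM after arsenite. Mutant libraries summed to 234703 to 270398 CPM before and 44881 to 68652 CPM after, and all 15 fell with arsenite in both genotypes. Of 15 endothelial markers 13 fell in wild type and 14 in mutants, and 1 rose in each, beside 24.6% and 30.3% of all tested genes falling. These CPM and calls are relative to the bulk of genes, and scaling by total counts (below) moves the arsenite changes upwards. The part of these markers in the changes under arsenite was not tested. In whole pools, fewer cells of a type and less RNA per cell cannot be told apart. Exocrine pancreas markers (17 genes, PTF1A at 0 in all groups but exposed mutants) ranged from 4.96 to 191 summed CPM in wild-type libraries and from 7.24 to 1368 in mutant libraries.

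The first question was how arsenite changed the cytosolic set. In wild type all 18 cytosolic genes rose, where 28.7% of all tested genes rose and 53.3% changed in either direction (edgeR quasi-likelihood test, Benjamini-Hochberg adjusted p below 0.05 over 16389 genes). Their log2 changes ran from 0.65 (SARS1, seryl) to 2.29 (WARS1, tryptophanyl) with a median of 1.23, against a median of 0.03 over all tested genes. In mutants all 18 rose as well, from 0.70 (SARS1) to 2.54 (WARS1) with a median of 1.48, beside a background of 31.5% rising and 61.8% changing in either direction. For each of the 18 genes, and in each genotype, all 5 exposed libraries lay above all 5 unexposed ones, while 18.7% of all genes separated upwards in wild type and 25.1% in mutants. Changes are relative to the bulk of genes. Scaling by total counts moved the median of all genes to 0.75 in wild type and 0.83 in mutants, and with that scaling the 18 genes also rose in both genotypes, with medians of 1.97 and 2.33.

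**Figure D1:**
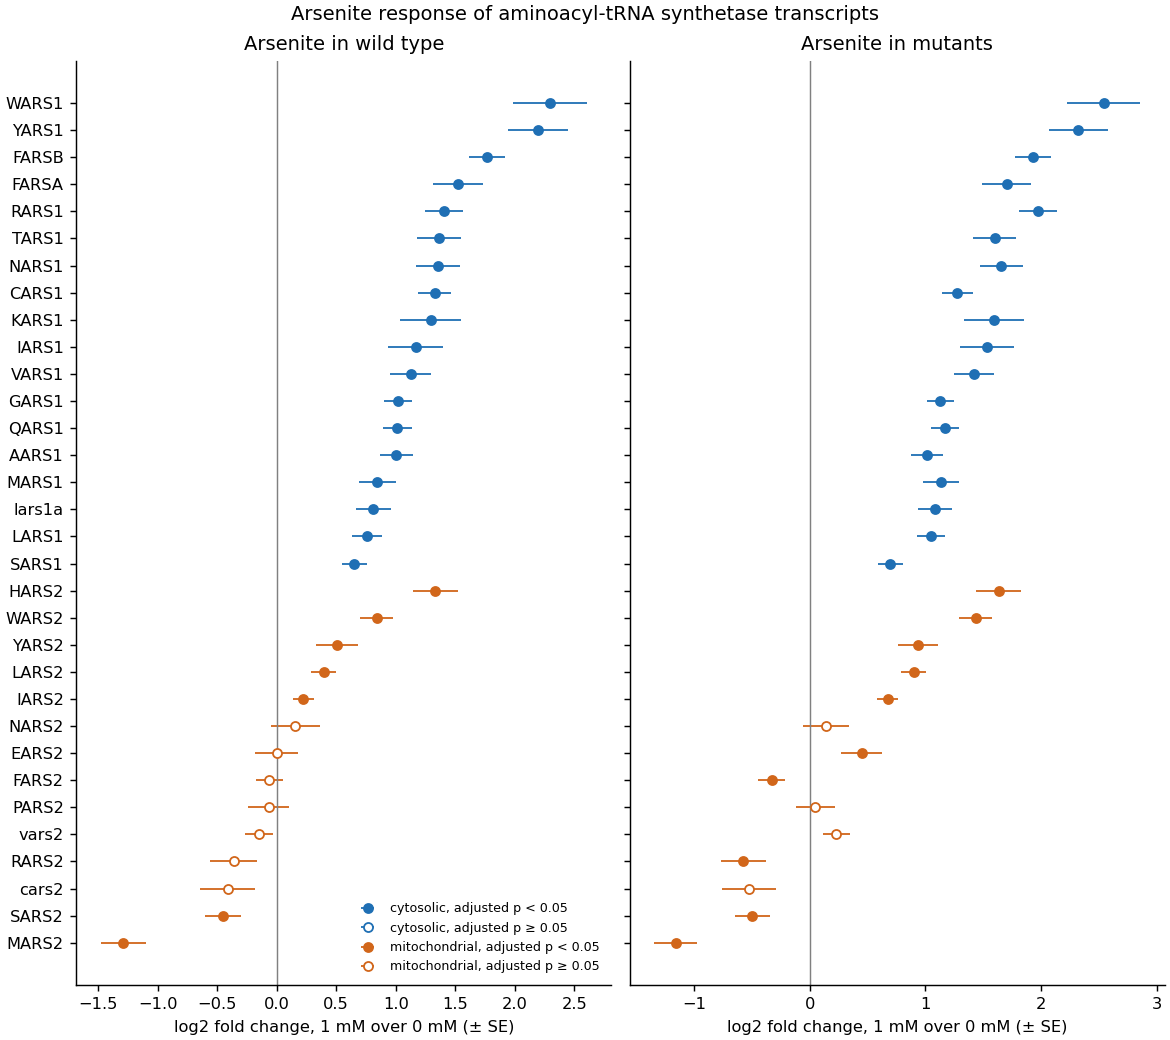
Log2 fold change (x axis, 1 mM over 0 mM sodium arsenite, ± SE) of each of the 32 synthetase genes (y axis) in wild type (left) and as3mt-/- mutants (right), 5 libraries a group. All 18 cytosolic genes (blue) lie right of 0 in both panels, from 0.65 to 2.54, and the 14 mitochondrial genes (orange) lie on both sides, from -1.29 to 1.63, or to 1.43 without the uncertain member HARS2, on a scale relative to the bulk of genes (with scaling by total counts all of them but MARS2 lie to the right of 0 in both genotypes, among them cars2, FARS2, RARS2 and SARS2, and PARS2 and vars2 in wild type, which are left of 0 here).

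FARSB, the beta subunit of phenylalanyl-tRNA synthetase, had the smallest adjusted p of the family in wild type. Its level without arsenite was 40.1, 31.6, 38.1, 31.2 and 38.5 CPM in wild type and 28.7, 28.1, 30.7, 31.7 and 44.2 CPM in mutants. With arsenite FARSB measured 146, 107, 114, 134 and 109 CPM in wild type and 108, 107, 139.9, 165 and 103 CPM in mutants. Every exposed library held more than any unexposed one, and the rise was 1.77 ± 0.15 (log2, SE; adjusted p = 1.24e-08) in wild type and 1.93 ± 0.15 (adjusted p = 1.29e-09) in mutants. FARSA, its alpha partner, held 34.98 to 47.4 CPM before and 99.03 to 143 CPM after arsenite in wild type, and 37.1 to 94.3 CPM before and 137 to 219 CPM after in mutants, with log2 changes of 1.52 ± 0.21 and 1.70 ± 0.21.

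CARS1, which charges cysteine, counted 33.5, 23.3, 29.2, 25.1 and 25.1 CPM in unexposed and 79.8, 55.5, 67.9, 69.3 and 68.8 CPM in exposed wild type. In mutants CARS1 went from 25.2, 25.3, 28.1, 27.3 and 40.5 CPM to 67.1, 65.9, 80.2, 67.00 and 73.8 CPM. Its groups did not overlap, and the log2 changes of 1.33 ± 0.14 (adjusted p = 1.06e-07) and 1.27 ± 0.13 (adjusted p = 7.32e-08) lay close to each other. GARS1, the glycyl enzyme, stood at 138, 121, 127, 112 and 114 CPM without and 278, 225, 231, 264 and 242 CPM with arsenite in wild type. The mutant levels of GARS1 were 94.4, 94.2, 108, 96.9 and 143 CPM and, with arsenite, 216, 222, 254, 266 and 215 CPM. GARS1 rose in both, by 1.02 ± 0.11 (adjusted p = 3.61e-07) in wild type and 1.13 ± 0.11 (adjusted p = 4.17e-08) in mutants on the log2 scale, with no overlap of exposed and unexposed libraries.

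RARS1, the arginyl enzyme and a member of the multisynthetase complex in mammals, read 47.3, 31.9, 39.8, 33.7 and 39.1 CPM in unexposed wild type against 116, 104, 96.2, 108 and 84.6 CPM with arsenite. Unexposed mutants gave 21.1, 25.9, 25.9, 26.9 and 41.8 CPM and exposed mutants 94.6, 115, 116, 138 and 93.8 CPM of RARS1. Unexposed mutant libraries lay lower apart from replicate 5, and the difference between the unexposed genotypes was not called (-0.44, adjusted p = 0.0726). Exposed levels overlapped. The log2 rise was 1.41 ± 0.16 in wild type (adjusted p = 4.57e-07) and 1.98 ± 0.16 in mutants (adjusted p = 2.35e-09), and the difference of these rises was not called. QARS1, which charges glutamine and also belongs to the complex, was at 56.3, 44.9, 56.4, 44.7 and 49.5 CPM and rose to 116, 96.5, 96.8, 107 and 91.3 CPM in wild type. Its mutant levels were 32.4, 46.99, 44.02, 45.4 and 47.6 CPM before and 84.04, 102, 105, 114 and 81.1 CPM after exposure. QARS1 changed by 1.01 ± 0.12 (adjusted p = 8.52e-07) and 1.17 ± 0.12 (adjusted p = 6.31e-08), again without overlap.

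The largest rises among the 32 genes were those of WARS1 and YARS1, singled out here after their values were seen. WARS1, the tryptophanyl enzyme, went from 11.6, 5.43, 9.29, 6.42 and 7.45 CPM to 48.02, 37.4, 34.8, 45.1 and 32.1 CPM in wild type and from 2.93, 4.72, 3.31, 2.87 and 11.3 CPM to 22.5, 39.8, 28.4, 25.8 and 30.9 CPM in mutants. YARS1, the tyrosyl enzyme, went from 33.9, 31.2, 37.9, 31.9 and 30.98 CPM to 158, 153, 149, 167 and 132 CPM in wild type and from 18.2, 22.5, 28.9, 21.3 and 64.4 CPM to 128, 141, 179, 193 and 136 CPM in mutants. These are 4.91-fold and 5.82-fold rises for WARS1 and 4.58-fold and 5.003-fold for YARS1, with unexposed mutant replicate 5 well above its group in both genes. At the other end SARS1, the seryl enzyme, moved least in wild type, by 1.57-fold. The 7 cytosolic genes described whose enzymes sit in the mammalian complex (IARS1, LARS1, lars1a, MARS1, QARS1, RARS1 and KARS1) had a median rise of 1.01 in wild type and 1.17 in mutants, and the other 11 one of 1.35 and 1.60 (log2). The ranges of these groupings overlap, 0.76 to 1.41 against 0.65 to 2.29 in wild type, and no test was made between them. EPRS1, also in the mammalian complex but outside the naming rule, rose by 1.78 in wild type and 2.13 in mutants. Both values lie above the range of the 7 genes, in which leucine enters with 2 genes.

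Summed over the 18 cytosolic genes, the level was 1652, 1185, 1394, 1159 and 1317 CPM in unexposed and 3553, 3030.3, 2821, 3268 and 2786 CPM in exposed wild-type libraries. Mutant sums were 878, 996, 1045, 985 and 1727 CPM without and 2628, 2861, 3316, 3529 and 2809 CPM with arsenite. Every exposed library was above every unexposed one, and the fifth unexposed mutant library stood apart from its group. The sums weight the genes with most reads, of which KARS1 (lysyl, 433 to 714 CPM in exposed wild type) was one.

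**Figure D2:**
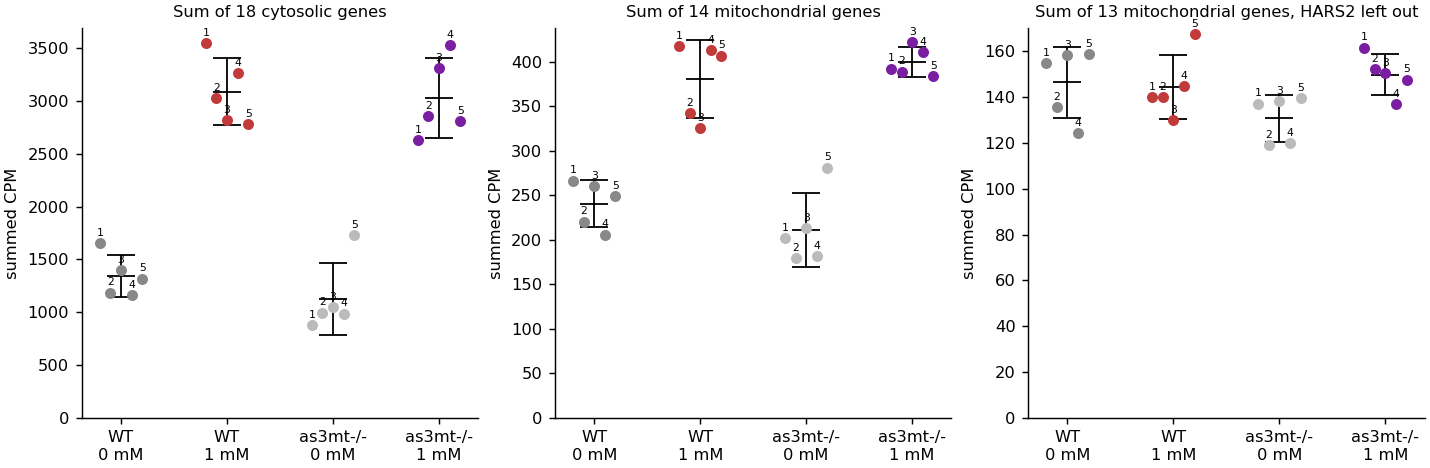
Summed CPM in each library (points, replicate number above; mean ± SD in black, n = 5 a group) of the 18 cytosolic genes, the 14 mitochondrial genes and the 13 mitochondrial genes without HARS2, in wild type (WT) and as3mt-/- mutants at 0 or 1 mM sodium arsenite. The cytosolic sum is 2786 to 3553 CPM in exposed and 1159 to 1652 CPM in unexposed wild type, whereas the sum of 13 mitochondrial genes is 130.1 to 168 CPM in exposed and 124 to 159 CPM in unexposed wild type. All sums are on a scale relative to the bulk of genes. With total-count scaling the exposed sums, also that of the 13 genes, lie higher against the unexposed ones.

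The second question was whether the mitochondrial set moved with the cytosolic one. In wild type 5 of 14 genes rose (HARS2, WARS2, LARS2, YARS2 and IARS2), 2 fell (MARS2 and SARS2) and 7 were not called, beside 28.7% of all tested genes rising and 24.6% falling. The median log2 change of the 14 was -0.03. With HARS2 left out the counts were 4 up and 2 down of 13 and the median was -0.06. In mutants 6 rose (the same 5 and EARS2) and 4 fell (MARS2, SARS2, FARS2 and RARS2), beside 31.5% of all tested genes rising and 30.3% falling. The median of the 14 was 0.18. With HARS2 left out the mutant counts were 5 up and 4 down of 13, with a median of 0.14. Of the 14, 3 separated upwards and 1 downwards without overlap in wild type (background 18.7% and 16.1%), and 5 and 1 in mutants (background 25.1% and 23.1%), or 2 and 1, and 4 and 1, of 13 without HARS2. Without HARS2 the other 13 genes summed to 146 ± 15.6 CPM before and 145 ± 14.0 CPM after arsenite in wild type, against 131 ± 10.4 and 149.9 ± 8.92 CPM in mutants (SD, n = 5). With total-count scaling the split was 10 up and 1 down in wild type, where 59.4% of all tested genes rose, and 11 up and 0 down in mutants, where 60.1% rose. Without HARS2 it was 9 up and 1 down, and 10 up and 0 down, of 13.

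HARS2 had the largest rise of the mitochondrial class, from 112, 84.8, 102, 81.5 and 90.5 CPM to 278, 202, 195, 269 and 239.6 CPM in wild type. Its mutant libraries went from 64.4, 60.2, 74.5, 61.98 and 142 CPM to 231, 237, 272, 275 and 237 CPM. The changes, 1.33 ± 0.19 (adjusted p = 7.60e-06) and 1.63 ± 0.19 (adjusted p = 3.43e-07), fell inside the range of the cytosolic genes. WARS2, the mitochondrial tryptophanyl enzyme, was at 2.97, 2.31, 3.41, 2.30 and 2.95 CPM and rose to 5.26, 5.48, 4.41, 5.15 and 4.69 CPM in wild type. In mutants WARS2 went from 1.75, 2.38, 2.19, 2.44 and 2.60 CPM to 5.33, 6.61, 6.19, 7.001 and 5.72 CPM. Both genotypes separated fully, with changes of 0.84 ± 0.14 (adjusted p = 4.40e-05) and 1.43 ± 0.14 (adjusted p = 2.70e-08), on levels that rest on as few as 37 reads in a library.

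LARS2, the mitochondrial leucyl enzyme, counted 11.3, 8.32, 11.9, 9.68 and 11.2 CPM in unexposed wild type and 13.1, 14.6, 12.2, 14.6 and 14.4 CPM with arsenite. Mutants gave 6.85, 7.57, 7.65, 6.52 and 7.84 CPM of LARS2 without arsenite and 12.4, 14.8, 13.01, 14.7 and 12.99 CPM with it. The exposed groups overlapped, the unexposed ones did not, and the rises were 0.39 ± 0.11 (adjusted p = 0.00379) and 0.90 ± 0.11 (adjusted p = 3.68e-07). IARS2, the mitochondrial isoleucyl enzyme, showed 39.7, 32.7, 39.2, 31.1 and 36.4 CPM in unexposed and 41.3, 42.9, 37.3, 41.99 and 45.7 CPM in exposed wild type, which overlap. Its mutant levels, 33.6, 27.5, 30.2, 24.9 and 28.2 CPM and 47.1, 46.3, 47.6, 44.6 and 44.8 CPM, did not. The IARS2 change was 0.22 ± 0.09 in wild type, a call lost in 14 of 21 alternatives (adjusted p = 0.0444), and 0.67 ± 0.09 in mutants (adjusted p = 2.15e-06). YARS2, the mitochondrial tyrosyl enzyme, rose by 0.51 ± 0.18 (adjusted p = 0.0194) and 0.94 ± 0.18 (adjusted p = 1.03e-04), with levels of 2.30 to 5.09 CPM before and 4.50 to 5.72 CPM after exposure in wild type. EARS2, which charges glutamate in mitochondria, was called in mutants, at 0.45 ± 0.18 (adjusted p = 0.0363), a call lost in 8 of 20 alternatives.

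MARS2, the mitochondrial methionyl enzyme, went the other way. Its wild-type libraries read 7.07, 5.58, 7.93, 5.003 and 7.80 CPM without arsenite and 2.42, 2.75, 2.07, 2.42 and 4.03 CPM with it, and its mutant libraries 6.48, 6.38, 8.07, 5.92 and 5.30 CPM and 3.55, 2.75, 2.45, 2.30 and 3.32 CPM. Exposed and unexposed libraries did not overlap in either genotype, and MARS2 changed by -1.29 ± 0.19 (adjusted p = 1.07e-05) and -1.16 ± 0.19 (adjusted p = 2.02e-05). Scaled by total counts the change of MARS2 was -0.58 (adjusted p = 0.00463) in wild type and -0.33 (adjusted p = 0.0757) in mutants. SARS2, the mitochondrial seryl enzyme, had 13.8, 11.6, 13.5, 10.7 and 16.5 CPM in unexposed and 8.08, 10.5, 8.12, 9.22 and 12.5 CPM in exposed wild type. In mutants SARS2 had 12.5, 9.88, 10.7, 9.22 and 11.7 CPM and, with arsenite, 9.72, 7.03, 6.97, 6.48 and 8.03 CPM. Its groups overlapped, and the changes of -0.45 ± 0.15 (adjusted p = 0.0151) and -0.50 ± 0.15 (adjusted p = 0.00666) turned to 0.26 and 0.33 with total-count scaling.

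FARS2 and RARS2, the mitochondrial phenylalanyl and arginyl enzymes, were called down in mutants relative to the bulk of genes and turned upwards, to 0.50 and 0.25, with total-count scaling. FARS2 read 18.1, 17.2, 22.4, 17.99 and 19.9 CPM in unexposed and 17.2, 14.4, 14.3, 12.9 and 17.2 CPM in exposed mutants (-0.33 ± 0.12, adjusted p = 0.0171). RARS2 read 5.58, 4.15, 6.45, 7.36 and 5.48 CPM and 4.72, 3.66, 4.18, 3.37 and 3.54 CPM in the same groups (-0.58 ± 0.20, adjusted p = 0.0152). Exposed and unexposed mutants overlapped in both. In wild type the changes were -0.06 ± 0.12 for FARS2 (adjusted p = 0.675) and -0.36 ± 0.20 for RARS2 (adjusted p = 0.133), and neither was called. FARS2 held 16.01 to 19.3 CPM before and 14.5 to 20.2 CPM after exposure there, and RARS2 4.02 to 5.77 CPM before and 2.54 to 5.38 CPM after.

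**Figure D3:**
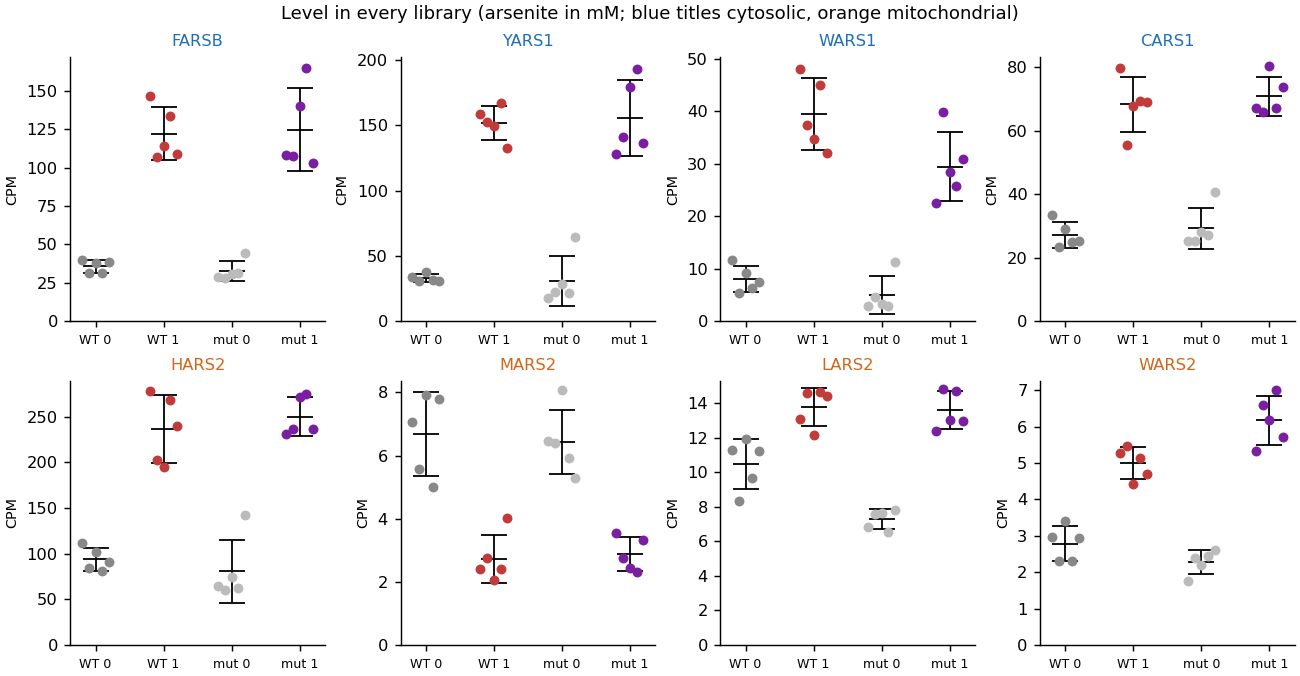
CPM in each library (points; mean ± SD in black, n = 5 a group) of 4 cytosolic genes (blue titles) and 4 mitochondrial genes (orange titles) in wild type (WT) and as3mt-/- mutants (mut) at 0 or 1 mM sodium arsenite. FARSB, YARS1, WARS1, CARS1 and HARS2 rise in both genotypes and MARS2 falls from 5.00 to 8.07 CPM down to 2.07 to 4.03 CPM, on a scale relative to the bulk of genes (with total-count scaling the fall of MARS2 is smaller, and not called in mutants).

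Cytosolic and mitochondrial enzymes for one amino acid were set side by side for 11 amino acids, in 13 pairings because the phenylalanyl and leucyl mitochondrial genes each meet 2 cytosolic symbols. The cytosolic gene had the higher log2 change in 13 of 13 pairings in wild type and 13 of 13 in mutants, by a median of 1.46 (0.36 to 2.13) and 1.39 (0.15 to 2.55). A change of scaling shifts both genes of a pairing together. The widest gap in wild type was methionine, where MARS1 rose from 26.1, 26.9, 29.9, 28.9 and 32.4 CPM to 61.2, 53.6, 53.1, 48.6 and 42.6 CPM (0.84 ± 0.16) while MARS2 fell relative to the bulk of genes, less so with total-count scaling. The narrowest was leucine, where LARS1 changed by 0.76 ± 0.12 and LARS2 by 0.39 ± 0.11.

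Arginine and phenylalanine had rising cytosolic genes beside mitochondrial genes that were not called in wild type, as given above. Cysteine showed the same calls: CARS1 rose while cars2 read 12.7, 8.94, 15.7, 12.5 and 14.5 CPM and, with arsenite, 7.99, 6.89, 10.7, 8.51 and 14.3 CPM in wild type (-0.41 ± 0.23, adjusted p = 0.141). In mutants cars2 went from 13.2, 7.93, 13.8, 10.6 and 20.6 CPM to 10.8, 8.16, 9.46, 6.54 and 10.98 CPM (-0.53 ± 0.23, adjusted p = 0.0537). The cars2 groups overlapped in both genotypes. For asparagine, NARS1 rose from 113, 80.9, 116, 89.2 and 96.4 CPM to 312, 261, 218, 260.5 and 213 CPM in wild type and from 54.8, 71.1, 63.8, 58.8 and 121 CPM to 187, 219, 256, 275 and 226 CPM in mutants. NARS2, its mitochondrial counterpart, stood at 4.24, 3.56, 3.64, 1.94 and 3.48 CPM and 3.95, 3.86, 3.86, 4.09 and 3.02 CPM in wild type, and at 4.07, 2.92, 2.94, 3.19 and 3.28 CPM and 2.21, 4.43, 4.01, 4.36 and 2.99 CPM in mutants. NARS1 changed by 1.35 ± 0.18 and 1.65 ± 0.19 without overlap, and the NARS2 estimates were 0.16 ± 0.20 and 0.14 ± 0.20 in overlapping groups. These calls are relative to the bulk of genes. With total-count scaling NARS2 (0.89 and 0.99) and FARS2 (0.66 and 0.50) were called up in both genotypes. RARS2 (0.35 and 0.25) and cars2 (0.30 and 0.31) were then called in neither.

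For valine, VARS1 went from 70.7, 51.3, 76.3, 51.7 and 59.9 CPM to 138, 196, 117, 116 and 109 CPM in wild type and from 44.95, 38.4, 42.6, 45.1 and 58.8 CPM to 105, 115, 124, 164 and 107 CPM in mutants. Its mitochondrial counterpart vars2 had 29.3, 27.2, 28.1, 21.1 and 26.2 CPM and 24.7, 23.2, 20.5, 22.4 and 28.2 CPM in wild type, and 23.4, 20.8, 22.9, 20.3 and 20.7 CPM and 30.9, 26.9, 24.99, 19.4 and 24.5 CPM in mutants. VARS1 rose by 1.12 ± 0.17 and 1.42 ± 0.17, and vars2 had estimates of -0.15 ± 0.12 and 0.23 ± 0.12, neither called relative to the bulk of genes. With total-count scaling vars2 was called up in both genotypes (0.57 and 1.06). For serine, SARS1 rose from 150.2, 134, 153, 136 and 135 CPM to 234, 212, 189.7, 237 and 240.0 CPM in wild type and from 93.8, 101, 122, 117 and 148 CPM to 178, 180.0, 199, 186 and 199 CPM in mutants (0.65 ± 0.11 and 0.70 ± 0.11), while SARS2 was called down relative to the bulk of genes and turned upwards with total-count scaling. EARS2 and PARS2 had no cytosolic partner within the naming rule. Their joint partner EPRS1 measured 93.4, 83.5, 101, 83.6 and 91.7 CPM before and 349, 336, 307, 320.0 and 247 CPM after arsenite in wild type, and 65.3, 66.97, 73.8, 76.3 and 127 CPM and 273, 304, 399, 505 and 308 CPM in mutants. EPRS1 rose without overlap, by 1.78 ± 0.18 (adjusted p = 1.05e-07) and 2.13 ± 0.18 (adjusted p = 4.10e-09), and PARS2, the mitochondrial prolyl enzyme, was not called, at -0.07 ± 0.17 and 0.05 ± 0.17. With total-count scaling PARS2 was called up in both genotypes (0.65 and 0.88).

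**Figure D4:**
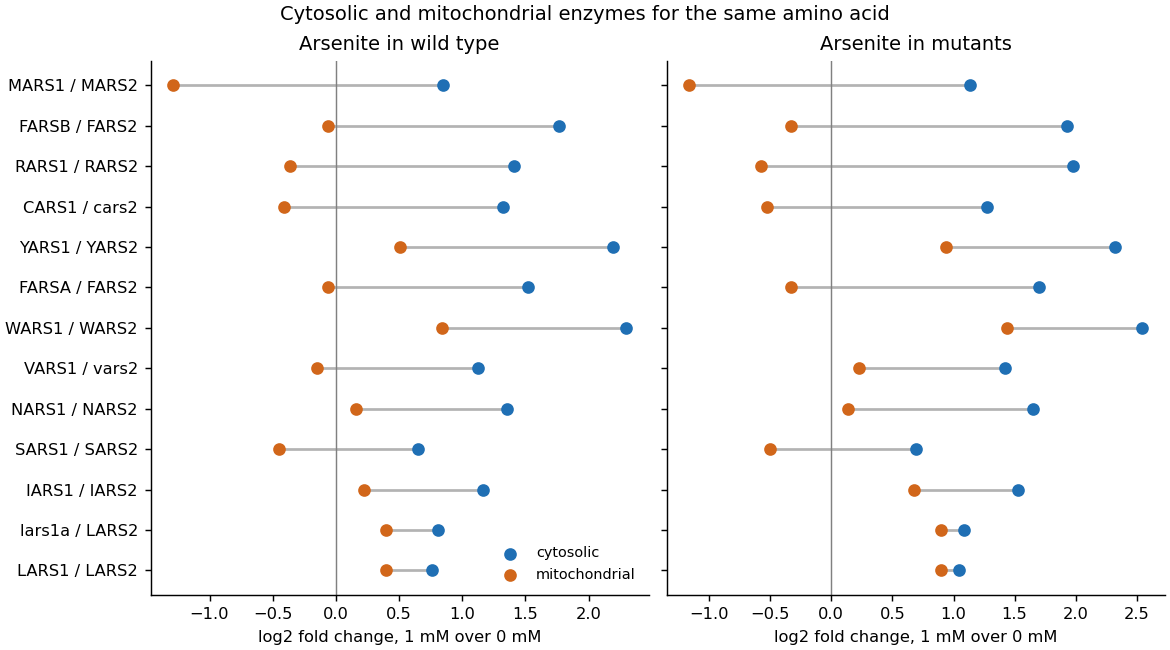
Log2 fold change (x axis, 1 mM over 0 mM sodium arsenite, relative to the bulk of genes) of the cytosolic (blue) and mitochondrial (orange) gene for the same amino acid, joined by a grey line, in wild type (left) and as3mt-/- mutants (right). The blue point lies right of the orange one in 13 of 13 pairings in each panel, and the gaps run from 0.36 to 2.13 in wild type, while with total-count scaling both points of a pairing move right together.

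The third question was whether the family differed between as3mt-/- mutants and wild type, where genotype and strain cannot be told apart. Without arsenite 2 of 32 genes were called, both mitochondrial and both lower in mutants, beside 13.8% of all tested genes (7.91% lower and 5.91% higher). For LARS2 the log2 difference, mutant minus wild type, was -0.53 ± 0.11 (adjusted p = 0.00263), and its mutant libraries at 6.52 to 7.84 CPM did not overlap the wild type at 8.32 to 11.9 CPM, as was true of 6.12% of all genes in that direction and 4.44% in the other. For IARS2 it was -0.31 ± 0.09 (adjusted p = 0.0270) with 24.9 to 33.6 CPM in mutants and 31.1 to 39.7 CPM in wild type, and its call was lost in 12 of 20 alternatives. Among the cytosolic genes 0 of 18 were called (edgeR), and 8 had an unadjusted p below 0.05, beside 4673 of all 16389 tested genes. DESeq2 called 2 of the 18, and its share of all genes is not given here. Of the cytosolic estimates 16 of 18 were below 0, with a median of -0.29. Over all tested genes 8260 of 16389 estimates were above 0. With total-count scaling the cytosolic median was -0.12 and the median of all genes was 0.18.

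The cytosolic calls in this comparison turned on 1 library. Unexposed mutant replicate 5 had the highest level of its group for 17 of 18 cytosolic and 6 of 14 mitochondrial genes. Its cytosolic sum was 1727 CPM where the other 4 libraries held 878 to 1045 CPM, and its mean log2 CPM over the ATF4 program list was 4.31 where theirs were 3.11 to 3.45. Its exocrine pancreas sum of 183 CPM lay inside the range of the other 4, 87.2 to 1368 CPM. Without that library 12 of 32 genes were called, beside 12.6% of all tested genes (7.39% lower and 5.18% higher). All 12 were lower in mutants, namely 10 cytosolic ones (AARS1, GARS1, IARS1, NARS1, RARS1, SARS1, TARS1, VARS1, WARS1 and YARS1) and HARS2 and LARS2. The cytosolic median was then -0.48 and the mitochondrial one -0.23. WARS1 moved from -0.67 (adjusted p = 0.161) to -1.22 (adjusted p = 0.00171), and AARS1, the alanyl enzyme, from -0.33 (adjusted p = 0.121) to -0.52 (adjusted p = 0.00212). That library stands out by high levels of these same cytosolic genes and of HARS2, so leaving it out lowers their mutant means by construction. The cytosolic and HARS2 calls gained in this way are not independent support for a difference between the genotypes.

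With arsenite 0 of 32 genes differed between mutants and wild type by edgeR, beside 20.6% of all tested genes (7.68% higher and 12.9% lower), and DESeq2 called 0. By edgeR 5 of 32 had an unadjusted p below 0.05, beside 5405 of all 16389 tested genes, a larger share. In 0 of 32 genes did the exposed groups of the genotypes separate, beside 6.66% of all genes with mutants higher and 8.74% with mutants lower. The estimates ran from -0.42 (WARS1, SE 0.29) to 0.48 (FARSA, SE 0.20), with medians of -0.04 for the cytosolic and 0.08 for the mitochondrial genes, against -0.03 for all genes. With total-count scaling 7 were called, all higher in mutants (FARSA, EARS2, IARS2, PARS2, vars2, WARS2 and YARS2), where 26.2% of all tested genes were higher and the median of all genes was 0.25. Leaving out unexposed mutant replicate 5, which enters the shared estimate of the spread, gave 2 calls, 1 higher and 1 lower. Over the same comparison 13 of 15 hepatocyte, 9 of 15 endothelial and 3 of 5 intestine markers were lower and 4 of 13 tested exocrine pancreas markers higher in mutants, and the part of any of these in the values was not tested.

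The responses themselves were compared as the mutant change minus the wild-type change. For 0 of 32 genes was the difference called by edgeR, beside 3.98% of all tested genes (1.31% positive and 2.67% negative). DESeq2 called 3 (IARS2, LARS2 and WARS2), and its share of all genes is not given here. By edgeR 5 of 32 genes had an unadjusted p below 0.05, beside 2992 of all 16389 tested genes, a larger share. The largest differences by edgeR were those of WARS2 (0.59 ± 0.20, adjusted p = 0.0959), RARS1 (0.57 ± 0.22, adjusted p = 0.171), LARS2 (0.50 ± 0.15, adjusted p = 0.0629) and IARS2 (0.45 ± 0.13, adjusted p = 0.0535). For the cytosolic genes 17 of 18 estimates were above 0, with a median of 0.24 and standard errors of 0.15 to 0.43, and the median of all tested genes was -0.05. Over all tested genes 7417 of 16389 estimates were above 0. The 18 cytosolic estimates come from the same libraries and are not independent of each other. Leaving out unexposed mutant replicate 5, in which RARS1 was high, gave 1 call, RARS1, at 0.76 (adjusted p = 0.0335). Leaving that library out raises the RARS1 difference by construction, so this call is not independent support for a difference of the responses.

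Genes that work beside the synthetases were described from lists. As background, 28.7% of all tested genes rose and 24.6% fell in wild type, and 31.5% rose and 30.3% fell in mutants. The scaffolds of the multisynthetase complex rose in 3 of 3 cases in wild type and 2 of 3 in mutants. AIMP1 rose by 0.63 ± 0.13 and 1.03 ± 0.13, EEF1E1 (AIMP3) by 0.58 ± 0.14 and 1.09 ± 0.14, and AIMP2 by 0.46 ± 0.14 in wild type, with 0.30 ± 0.14 in mutants (adjusted p = 0.0619). SEPSECS, which turns phosphoseryl-tRNA into selenocysteinyl-tRNA, held 27.02 to 35.6 CPM before and 15.1 to 23.1 CPM after arsenite in wild type, a log2 change of -0.80 ± 0.13 relative to the bulk of genes (adjusted p = 4.14e-05) and of -0.07 with total-count scaling. Unexposed mutants held less SEPSECS than unexposed wild type, 14.2 to 22.03 CPM (-0.85 ± 0.13, adjusted p = 2.79e-04), and exposed mutants measured 14.7 to 18.7 CPM (-0.02 ± 0.13, or 0.82 with total-count scaling). The difference between the genotypes' responses was called for SEPSECS, at 0.78 ± 0.19 (adjusted p = 0.0229). tars3, a further threonyl-tRNA synthetase, was called down in mutants at -1.69 ± 0.62 (adjusted p = 0.0229) on levels below 1 CPM.

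Mitochondria lack a glutaminyl-tRNA synthetase and make that tRNA from misacylated glutamyl-tRNA. Of 5 genes for this route and for handling the initiator formyl-methionine, 4 rose in each genotype, GATB by 0.43 ± 0.11 and 0.65 ± 0.11, QRSL1 by 0.47 ± 0.18 and 0.92 ± 0.18, and PDF, the deformylase, by 0.42 ± 0.15 and 0.75 ± 0.15. Mitochondrial translation factors rose for 7 of 11 genes in wild type and 10 of 11 in mutants, with none lower. The background for both lists was 28.7% of all tested genes rising in wild type and 31.5% in mutants. TUFM, the mitochondrial elongation factor Tu, rose by 0.49 ± 0.11 and 0.67 ± 0.11, and GFM2, a ribosome recycling factor, by 0.94 ± 0.12 in mutants with a called difference from wild type of 0.61 ± 0.16 (adjusted p = 0.0388). These counts stand beside 5 of 14 and 6 of 14 mitochondrial synthetases that rose, and the lists were not tested against each other. With each of the 3 scalings tried (TMM, DESeq2 size factors and total counts) 0 genes of either list were called lower.

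Beside a background of 28.7% of all tested genes rising in wild type and 31.5% in mutants, proofreading factors were counted. Among 7 genes listed for proofreading outside the synthetases 6 rose in each genotype. Those that moved include DTD2 (a D-aminoacyl-tRNA deacylase, 0.81 ± 0.18 in wild type), prorsd1 (a homologue of the bacterial prolyl-tRNA editing domain, 0.77 ± 0.17 and 1.38 ± 0.18), PTRHD1 (a protein with a peptidyl-tRNA hydrolase domain, 2.04 ± 0.27 in mutants) and also prxl2b, a prostaglandin F synthase whose known work is not proofreading (1.63 ± 0.19 and 1.68 ± 0.19).

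Upstream, of 8 genes for eIF2 kinases, eIF2 alpha and its phosphatase subunits, 3 rose and 2 fell in wild type and 5 rose and 2 fell in mutants. The log2 estimates of the 8, called or not, ran from -2.001 to 3.43 in wild type and from -1.93 to 6.22 in mutants. Their medians were 0.29 and 0.49. Over all tested genes 28.7% rose and 24.6% fell in wild type, and 31.5% rose and 30.3% fell in mutants. eif2ak1, the heme-regulated kinase that arsenite activates in mammalian cells, went from 12.1, 10.3, 11.7, 9.60 and 10.9 CPM to 21.8, 19.6, 25.03, 16.6 and 22.4 CPM in wild type and from 11.1, 10.6, 7.90, 9.37 and 12.7 CPM to 22.6, 18.1, 23.3, 20.8 and 21.5 CPM in mutants. It rose by 0.95 ± 0.13 (adjusted p = 3.30e-06) and 1.04 ± 0.13 (adjusted p = 5.45e-07), without overlap. ppp1r15a (GADD34), the stress-induced phosphatase subunit, changed by -2.001 and -1.93 on the log2 scale, and by -1.26 and -1.08 with total-count scaling. Transcript levels do not show phosphorylation of eIF2 alpha.

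The ATF4 program list held 37 tested genes, of which 18 rose and 10 fell in wild type and 16 rose and 11 fell in mutants, or 24 and 5, and 23 and 7, with total-count scaling. Of all tested genes 28.7% rose and 24.6% fell in wild type and 31.5% and 30.3% in mutants, and with total-count scaling 59.4% and 60.1% rose. The list holds no synthetase of the 32, and its members went both ways. slc7a11, the cystine carrier, rose by 8.19 ± 0.88 and 6.17 ± 0.70, and SLC38A2, an amino acid carrier, by 3.29 ± 0.38 in wild type, while slc7a1a, a cationic amino acid carrier, changed by -2.36 ± 0.22 and -3.25 ± 0.23 and by -1.65 and -2.42 with total-count scaling. nupr1a, a stress-induced chromatin protein, and pck2, the mitochondrial phosphoenolpyruvate carboxykinase, differed between the genotypes' responses. nupr1a held 12.4 to 16.6 CPM before and 11.3 to 22.4 CPM after arsenite in wild type, and 8.94 to 14.00 CPM and 37.4 to 57.5 CPM in mutants (1.84 ± 0.23 against wild type, adjusted p = 1.62e-04). pck2 held 1776 to 2123 CPM before and 555 to 1090.1 CPM after arsenite in wild type, and 1883 to 2192 CPM and 283 to 596 CPM in mutants (-0.91 ± 0.25, adjusted p = 0.0421).

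Cytosolic elongation and initiation factors, only some of which take the charged tRNA to the ribosome, gave calls that depend on the scaling. Of 11 cytosolic elongation and initiation partners 2 rose and 6 fell in wild type and 3 rose and 6 fell in mutants, a split that became 8 up and 1 down, and 9 up and 1 down, with total-count scaling. The shares of all tested genes that rose, under both scalings, are those given above for the ATF4 program list. EIF5A2 rose by 1.24 ± 0.11 and 1.39 ± 0.12, or by 1.96 and 2.22 with total-count scaling, and eef1da, a subunit of the elongation factor 1 exchange complex, changed by -0.88 ± 0.09 and -0.995 ± 0.09 (-0.17 and -0.15, not called, with total-count scaling). An identifier listed as EEF1A1 (elongation factor 1 alpha) was at 8.61 to 16.5 CPM in unexposed and 0.0252 to 0.306 CPM in exposed wild type, one of several near-identical genes between which reads may be split.

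Some of these neighbours also differed between the genotypes, relative to the bulk of genes. Of all tested genes 7.91% were lower in mutants and 5.91% higher without arsenite, and 12.9% and 7.68% with it. Of 11 cytosolic elongation and initiation partners 5 were lower and 0 higher without arsenite, and 3 and 0 with it. Of 7 proofreading genes 2 were lower and 1 higher without arsenite, and 0 and 1 with it. Of 37 ATF4 program genes 2 were lower and 1 higher without arsenite, and 4 and 1 with it. Without arsenite, lower in mutants were the scaffold EEF1E1 (-0.47 ± 0.14, adjusted p = 0.0311), GATB (-0.34 ± 0.11, adjusted p = 0.0441), the mitochondrial ribosome recycling factor MRRF (-0.88 ± 0.13, adjusted p = 2.00e-04) and the mitochondrial elongation factor GFM1 (-0.48 ± 0.11, adjusted p = 0.00748). With total-count scaling EEF1E1 (-0.29), GATB (-0.17) and GFM1 (-0.31) were not called. eif2ak2 (PKR), the eIF2 kinase that responds to double-stranded RNA, was higher in mutants both without (1.48 ± 0.28, adjusted p = 0.00126) and with arsenite (1.65 ± 0.26, adjusted p = 1.18e-04). DDIT4, a stress-induced inhibitor of mTORC1 from the ATF4 program list, was lower in mutants in both, at -2.997 ± 0.63 (adjusted p = 0.00309) and -3.78 ± 0.64 (adjusted p = 2.43e-04).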

How the data were processed

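Poly-A RNA of 20 liver pools was measured as whole-number counts per gene, which the authors deposited as one table for each library, with 32105 identifiers and 25406597 to 42047561 counts in a library. Reads were checked with FastQC 0.11.5, trimmed with Trimmomatic 0.36 and placed on GRCz10, per the submitters' processing notes. Which programs aligned and counted the reads, and with which annotation, is not given in the sources used here. As the kit, the protocols name TruSeq V2 in one place and NEBNext Ultra II Directional in another, so it is not known whether counting used the strand, and reads of overlapping genes may be shared.

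Symbols came from a name table that covered 26269 of the 32105 identifiers. The RefSeq gene table belongs to a later assembly (GRCz12tu) and was used for names only. The members, the pathway lists and the cell type markers were chosen with earlier results of these data known. Of the 34 identifiers found by the symbol rule, 2 are not reported here, and each count, sum and median is over the other 32. CPM were computed here from the deposited counts with TMM-scaled library sizes. The filter on low counts (filterByExpr in edgeR 4.0.16, R 4.3.3) left 16389 genes. The quasi-likelihood test was fitted to all 20 libraries with 4 group means, p-values were adjusted by Benjamini-Hochberg over the 16389 genes, and a gene was called at an adjusted p below 0.05. The contrasts share groups, so their values are not independent of each other. The procedure was also run on simulated data in which a small share of genes changed, as many up as down. Such data cannot test the scaling where most genes change, as under arsenite here. Values in every library are given for up to 4 cytosolic and 4 mitochondrial called members per comparison with the smallest adjusted p, for members called against most of their class, and for cytosolic and mitochondrial pairs whose calls differ. From each pathway list up to 3 called genes per comparison are named. Alternatives were DESeq2 1.42.0 and its size factors, total-count scaling, no filter beyond 1 count, a mean of at least 10 CPM, robust dispersion, fits to the compared groups alone, a replicate block, an exocrine pancreas covariate, leaving out each library, and, chosen after seeing the data, leaving out 3 unexposed libraries or HARS2.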

Additional observations from a re-analysis of the deposited data

Results flagged for a closer look

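Of 140 groups of 5 libraries examined, 19 values stood apart from the other 4 by more than the 95% critical value of Dixon's test, which chance does in about 5% of groups. The groups are genes, and sums of the same genes, read in the same 20 libraries. They are thus not independent of each other, and the 19 cannot be set against that share as separate trials. Unexposed mutant replicate 5 gave 14 of the 19, all of them high. In that library AARS1 stood at 183 CPM, CARS1 at 40.5, FARSA at 94.3, FARSB at 44.2, GARS1 at 143, HARS2 at 142, IARS1 at 144, KARS1 at 354, NARS1 at 121, RARS1 at 41.8, TARS1 at 142, WARS1 at 11.3 and YARS1 at 64.4 CPM, and the cytosolic sum was 1727 CPM. The ATF4 program list was also high there, and the part of either the pool or the library in these values was not tested.

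The other outlying values were KARS1 at 417 CPM in unexposed wild-type replicate 1, QARS1 at 32.4 CPM (low) in unexposed mutant replicate 1, EARS2 at 2.55 CPM in exposed mutant replicate 5, and NARS2 at 3.02 and PARS2 at 6.49 CPM in exposed wild-type replicate 5.

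Among the listed neighbours named above, the arsenite response differed between the genotypes by a test of the difference for GFM2 (0.61), SEPSECS (0.78), nupr1a (1.84) and pck2 (-0.91), each as mutant minus wild-type log2 change.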

How the results depend on the processing

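All 18 cytosolic genes were called up in both genotypes under each alternative that tested them, with log2 changes of 0.58 to 3.04 in wild type and 0.63 to 3.39 in mutants. Of 3549 values of single genes under an alternative, 3429 kept their side of the threshold (133 of them, called in neither fit, changed sign), 43 lost a call, 70 gained one and 7 with a call in either fit reversed. The 7 came with total-count scaling, which raised the median of all genes: FARS2 in wild type (0.66) and mutants (0.50), PARS2 in wild type (0.65), RARS2 in mutants (0.25), SARS2 in wild type (0.26) and mutants (0.33), and vars2 in wild type (0.57). With that scaling mitochondrial calls became 10 up and 1 down in wild type and 11 up and 0 down in mutants, and the 3 comparisons that involve genotype gave 1 (without arsenite), 7 (with arsenite) and 2 calls (difference of the responses).

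Of the 2 calls between genotypes without arsenite, 1 was left with no filter, with a mean of at least 10 CPM, with the compared groups alone and with the exocrine pancreas covariate, DESeq2 gave 4, and leaving out any of the 20 libraries gave 1 to 12. With arsenite, 0 calls became 2 with the compared groups alone and 0 to 1 with a library of the compared groups left out (2 without unexposed mutant replicate 5). For the difference of the responses, 0 calls became 1 with DESeq2 size factors, 3 with DESeq2, 2 at a mean of at least 10 CPM and 0 to 2 with a library left out. At a mean of at least 10 CPM, 7 mitochondrial genes were tested, and 3 rose and 1 fell in wild type. Leaving out a library gave 3 to 5 rising (3 without unexposed wild-type replicate 4 or exposed wild-type replicate 5) and 1 to 4 falling mitochondrial genes in wild type (1 without unexposed replicate 5, 4 without exposed replicate 5), and 5 to 6 and 3 to 5 in mutants. Leaving out 3 unexposed libraries gave 10 calls between genotypes without and 2 with arsenite, and 3 mitochondrial genes rising in wild type. Apart from total-count scaling, the cause was not tested.

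Same-numbered libraries correlated above 0.1 in 3 of 5 wild-type and 4 of 5 mutant pairs, and each matched its own number best in 4 of 5, a hint from the data only. Between the genotypes 2 of 5 unexposed and 4 of 5 exposed pairs were above 0.1. There 2 and 4 libraries matched their own number best. The labels do not say what a number marks, and with not every pair above 0.1 the numbers were not taken as pairs. With the replicate block 26 members were called in wild type, 29 in mutants and 1 for the difference of the responses (IARS2, 0.45, adjusted p = 0.0437), or 0 with the block within genotype. The lowest read count of a gene in a library was 37 among mitochondrial (WARS2) and 62 among cytosolic genes (WARS1).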
